A study of Mus musculus with 2 samples.

Results

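The miR-302 and miR-290 clusters are a pair of miRNA gene groups best known from embryonic stem cells and the early embryo. Their counts were examined in the face of mouse embryos at day 14.5. The 9 members were chosen by gene symbol: Mir302a, Mir302b, Mir302c, Mir302d and Mir367 of the miR-302 cluster, and Mir291a, Mir293, Mir294 and Mir295 of the miR-290 cluster. All 9 had a row among the 1973 miRNA gene rows of the count tables. Small RNA of the embryonic facial prominences (the tissue buds of the face and jaws) of strain B6NCrl was sequenced in 2 biological replicates with 1 library each, and there was no other group, treatment or genotype. Each sample is described both as 1 face of a single pup and as a pool of both sexes, so whether a replicate is 1 embryo is not settled. The replicates were collected on different days, and day and replicate cannot be told apart.

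A miRNA is cut from one arm (5p or 3p) of an RNA hairpin and represses messenger RNAs that pair with its seed, here bases 2 to 8 counted from its 5′ end. Members of a cluster lie close together and are transcribed as one primary RNA. The miR-290 cluster is the most abundant miRNA source of mouse embryonic stem cells, and the miR-302 cluster follows in the epiblast after implantation. Through a common seed both speed the entry into the DNA synthesis phase of the cell cycle and help to keep cells pluripotent, and both are silenced as tissues differentiate, while the let-7 family rises.

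All 9 members matched entries of the RefSeq miRNA table (assembly GRCm38.p6), with 17 mature sequences of 21 to 23 bases. The sequences below are shown because they tie the clusters to each other and to more abundant relatives, with the seed in capitals. The first set shares the seed AAGUGCU, which 5 of the 1679 mature names in the table carry, all of them members of these clusters. The table has no entry for miR-302a-3p, which is left out of these sets and of the comparisons of 3p sequences.
mmu-miR-302b-3p: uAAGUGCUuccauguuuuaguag
mmu-miR-302d-3p: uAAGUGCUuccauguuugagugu
mmu-miR-291a-3p: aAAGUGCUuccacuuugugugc
mmu-miR-294-3p: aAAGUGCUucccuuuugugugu
mmu-miR-295-3p: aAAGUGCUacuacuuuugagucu

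The next set holds the 3p sequences whose seed differs, with Mir302c listed in the table from 1 base further in, so that the same letters give another seed.
mmu-miR-302c-3p: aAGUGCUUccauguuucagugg
mmu-miR-293-3p: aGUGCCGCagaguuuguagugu
mmu-miR-367-3p: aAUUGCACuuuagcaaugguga

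The 5p sequences separate the clusters. Mir302b, Mir302c and Mir302d share the 5p seed CUUUAAC, which no other mature name in the table has, and Mir302a has CUUAAAC.
mmu-miR-302a-5p: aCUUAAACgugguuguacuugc
mmu-miR-302b-5p: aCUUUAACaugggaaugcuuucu
mmu-miR-294-5p: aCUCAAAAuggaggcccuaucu
mmu-miR-293-5p: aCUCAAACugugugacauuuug

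The last set holds abundant relatives. The seed of the miR-17 group is moved by 1 base against that of the stem cell miRNAs, and the seed of miR-25 and miR-92a is that of miR-367-3p, which 6 mature names carry.
mmu-miR-17-5p: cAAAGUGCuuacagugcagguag
mmu-miR-93-5p: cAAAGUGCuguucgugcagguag
mmu-miR-25-3p: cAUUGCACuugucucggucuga
mmu-miR-92a-3p: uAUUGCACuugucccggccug

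On assembly mm10 the 5 genes of the miR-302 cluster lie within 580 bases of chromosome 3, at 127545228 to 127545807 on the plus strand, with 43 to 65 bases between hairpins. Their order is Mir302b, Mir302c, Mir302a, Mir302d and Mir367, and all lie in an intron of Larp7, on the strand opposite to that protein-coding gene. The 4 members of the miR-290 cluster span 1923 bases of chromosome 7, at 3218919 to 3220841 on the plus strand. They lie inside an untranslated exon of 1 of the 2 annotated transcripts of Nlrp12, again on the opposite strand. Mir290a, Mir291b and Mir292 of the same locus have rows but are outside the 9 members. Mir290b and Mir292b, annotated there on the minus strand, have no row. Every member had 0 counts on the opposite strand in both libraries, so the gene-strand and unstranded columns hold the same counts for them.

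By the layout of the count columns, which have no names, only uniquely placed gene-strand reads were counted. CPM is the number of counts per 1000000 gene-strand miRNA counts of a library. These totals were 2719153 in replicate 1 and 6602050 in replicate 2. A count of 0 allows up to 3 counts, or 1.10 CPM in replicate 1 and 0.454 CPM in replicate 2. The mature sequences are of nearly the same length, so CPM was not scaled by length, but adapter ligation favours some miRNAs over others and levels of different genes carry that bias. The counts are per hairpin gene and do not separate the 5p from the 3p arm. Markers of the labelled tissue were abundant, with epithelial genes at 52450 and 67435 CPM, mesenchymal genes at 17643 and 12119 CPM and cartilage genes at 43454 and 41703 CPM in replicates 1 and 2. Reads at several positions, which are not counted, were 29.8% and 28.5% of all reads.

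The miR-302 cluster was present at a low level and the miR-290 cluster far lower. The 5 genes of the miR-302 cluster held 487 counts in replicate 1 and 819 in replicate 2, or 179 CPM (95% Wilson interval 164 to 196) and 124 CPM (116 to 133), a mean of 152 ± 38.9 CPM (SD, n = 2). The 4 genes of the miR-290 cluster held 27 and 45 counts, or 9.93 CPM (6.82 to 14.4) and 6.82 CPM (5.09 to 9.12), a mean of 8.37 ± 2.20 CPM (SD, n = 2). Replicate 1 was the higher library for both sums, 1.44-fold for the miR-302 cluster and 1.46-fold for the miR-290 cluster. Scaled by TMM (a trimmed mean of log ratios) instead, the log2 ratios of replicate 2 over replicate 1 were -0.40 and -0.42.

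The balance of the clusters was nearly equal in both libraries. The miR-302 cluster had 18.0 times the counts of the miR-290 cluster in replicate 1 (exact 95% interval 12.2 to 27.7) and 18.2 times in replicate 2 (13.5 to 25.2), a log2 ratio of 4.18 ± 0.0092 (SD, n = 2). It made up 94.7% of the counts of both clusters in replicate 1 (exact 92.4 to 96.5) and 94.8% in replicate 2 (93.1 to 96.2). This ratio is taken within each library and does not depend on the scaling between them. The counting intervals are far wider than the gap between the libraries. With 2 libraries the smallest exact two-sided p is 0.5, so no exact test over replicates can pass 0.05 here. In bulk tissue a lower share of cells with these miRNAs and a lower level per cell cannot be told apart.

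**Figure D1:**
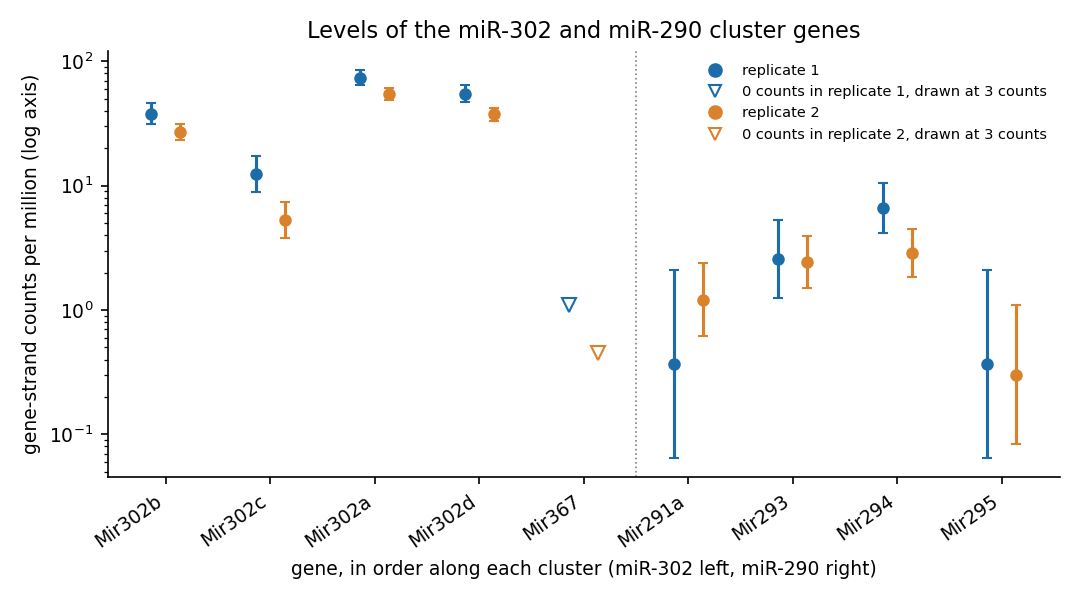
Level of each member in each library, in gene-strand CPM on a log axis, with 95% Wilson intervals of counting error. Genes run in chromosomal order, the miR-302 cluster on the left and the miR-290 cluster on the right, and open triangles mark Mir367, which had 0 counts, at the level that 3 counts would give. Mir302a stood at 73.9 and 54.5 CPM, above every other member in the same library.

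Within the miR-302 cluster 3 genes made up most of the counts. Mir302a was highest, with 201 and 360 counts in replicates 1 and 2, or 73.9 and 54.5 CPM. Mir302d followed with 149 and 247 counts, or 54.8 and 37.4 CPM. Mir302b had 103 and 177 counts, or 37.9 and 26.8 CPM. In each library the Wilson intervals of these 3 genes did not overlap, although Mir302d in replicate 1 was level with Mir302a in replicate 2, and Mir302b in replicate 1 with Mir302d in replicate 2. Mir302c, whose hairpin lies between those of Mir302b and Mir302a, had only 34 and 35 counts, or 12.5 and 5.30 CPM. It was 3.03-fold below Mir302b in replicate 1 and 5.06-fold in replicate 2, with no overlap of the libraries.

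Mir367, the last hairpin of the cluster, whose 3p seed is that of miR-25 and miR-92a, had 0 counts in both libraries and on both strands. Against a floor of 3 counts per library, Mir302a was at least 67-fold higher in replicate 1 and at least 120-fold higher in replicate 2. The same bound for Mir302d, the hairpin next to it, was 49.7-fold and 82.3-fold. The hairpin of Mir367 shares no 20-base stretch with another annotated miRNA gene. Whether adapter ligation or processing of this hairpin lowers its counts was not tested.

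In the miR-290 cluster Mir294 and Mir293 held most of the counts. Mir294, whose 3p sequence has the common seed, had 18 counts in replicate 1 and 19 in replicate 2, or 6.62 and 2.88 CPM. Mir293, which lacks that seed, had 7 and 16 counts, or 2.57 and 2.42 CPM. Mir291a had 1 and 8 counts, or 0.368 and 1.21 CPM, and Mir295 had 1 and 2 counts, or 0.368 and 0.303 CPM. The Wilson intervals of neighbours in this order overlapped in each library, so no order among these 4 genes stands beyond counting error from one step to the next. Mir302c and Mir294, the lowest detected gene of one cluster and the highest of the other, also overlapped in both libraries.

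The other genes of the miR-290 locus were as low. Mir292 had 3 and 8 counts, or 1.10 and 1.21 CPM, and Mir291b had 1 count in each library. Mir290a had 0 in both. The hairpins of Mir291a and Mir291b share a 20-base stretch, and their 5p sequences share a run of 20 bases, so reads of that arm can fall among those at several positions. With these 3 genes added the locus reached 9.79 CPM and the log2 ratio of the miR-302 cluster to it 3.95.

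Shared sequence also touches the miR-302 genes. The hairpins of Mir302a and Mir302b share a 20-base stretch with each other and with no other miRNA gene, so reads from that stretch can fall among those at several positions. The 3p sequences of Mir302b and Mir302d have a run of 17 bases in common, and each shares 16 bases with that of Mir302c. Across the clusters the longest common run is shorter, 11 bases between miR-291a-3p and the 3p sequences of Mir302b, Mir302c and Mir302d. Mir302d and Mir302c share no 20-base stretch with any other miRNA gene, and Mir302d was 4.38-fold above Mir302c in replicate 1 and 7.06-fold in replicate 2.

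**Figure D2:**
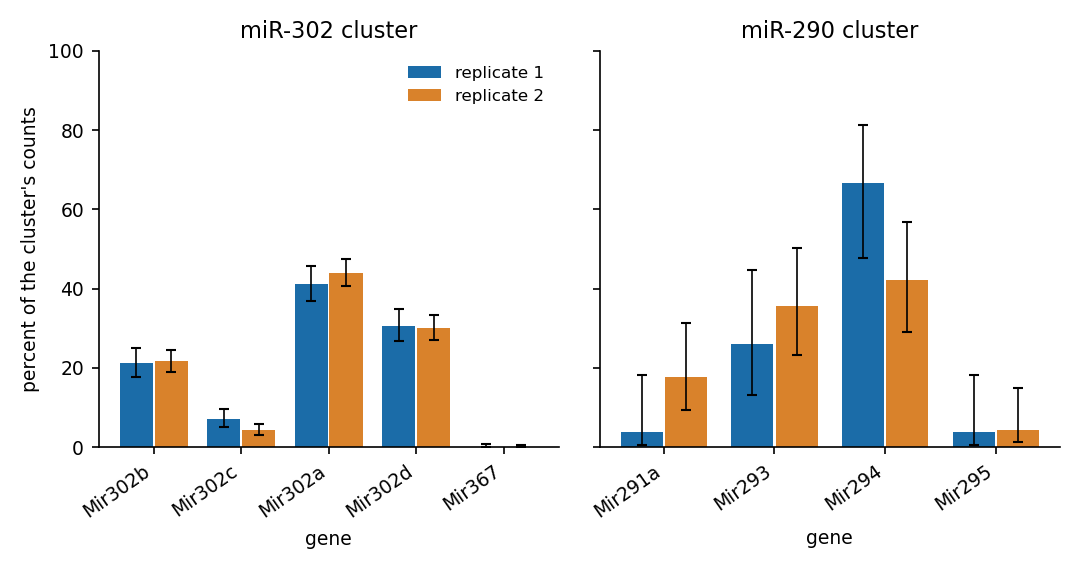
Share of each cluster's counts held by each member, in percent, with 95% Wilson intervals and 1 bar per library. Mir302a holds 41.3% and 44.0% of the miR-302 cluster and Mir367 none, while in the miR-290 cluster Mir294 stands at 66.7% and 42.2% with wide intervals.

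As shares of their own cluster the miR-302 genes kept similar values. Mir302a held 41.3% of the cluster in replicate 1 (Wilson 37.0 to 45.7) and 44.0% in replicate 2 (40.6 to 47.4). Mir302d held 30.6% and 30.2%, Mir302b 21.1% and 21.6%, and Mir302c 6.98% (5.04 to 9.60) and 4.27% (3.09 to 5.89). In the miR-290 cluster the share of Mir294 was 66.7% (47.8 to 81.4) and 42.2% (29.0 to 56.7), and that of Mir293 25.9% (13.2 to 44.7) and 35.6% (23.2 to 50.2). All of these intervals overlapped between the libraries. Overlap of intervals is not a test of the difference.

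The 2 libraries were then compared gene by gene with an exact binomial test over all genes with a mean of at least 10 counts, scaled by TMM and adjusted by the Benjamini-Hochberg method. This test compares 2 libraries, not conditions, and accounts for counting error only. Of the 9 members 6 had enough counts, and 3 of them were called, all lower in replicate 2. Of all 372 genes tested 52.2% were called, and 24.7% were called lower in replicate 2, so a call between these libraries is common. The median log2 ratio, replicate 2 over replicate 1, was -0.40 over the 6 tested members and -0.017 over all genes tested.

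Mir302c fell most, with a log2 ratio of -1.11 (counting SE 0.34, exact binomial test, adjusted p = 0.00393). Mir302d fell by 0.43 on the log2 scale (SE 0.15, exact binomial adjusted p = 0.0119) and Mir302a by 0.32 (SE 0.13, exact binomial adjusted p = 0.0309). Mir302b, at -0.38 (SE 0.18, exact binomial adjusted p = 0.0705), missed the threshold with a value between those of Mir302a and Mir302d. Mir294, at -1.08 (SE 0.47, exact binomial adjusted p = 0.0575), missed it too, and Mir293 stood at -0.017 (SE 0.64, adjusted p = 1). The call of Mir302a was lost with DESeq2 size factors (exact binomial adjusted p = 0.0854) and without a count filter (0.0587). It was also lost with TMM factors over all gene rows (exact binomial adjusted p = 0.0701), a setting chosen after the data were seen. With total counts in place of TMM, which moves the median of all genes to -0.14, 5 of the 6 were called lower, against 35.8% of all genes tested.

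**Figure D3:**
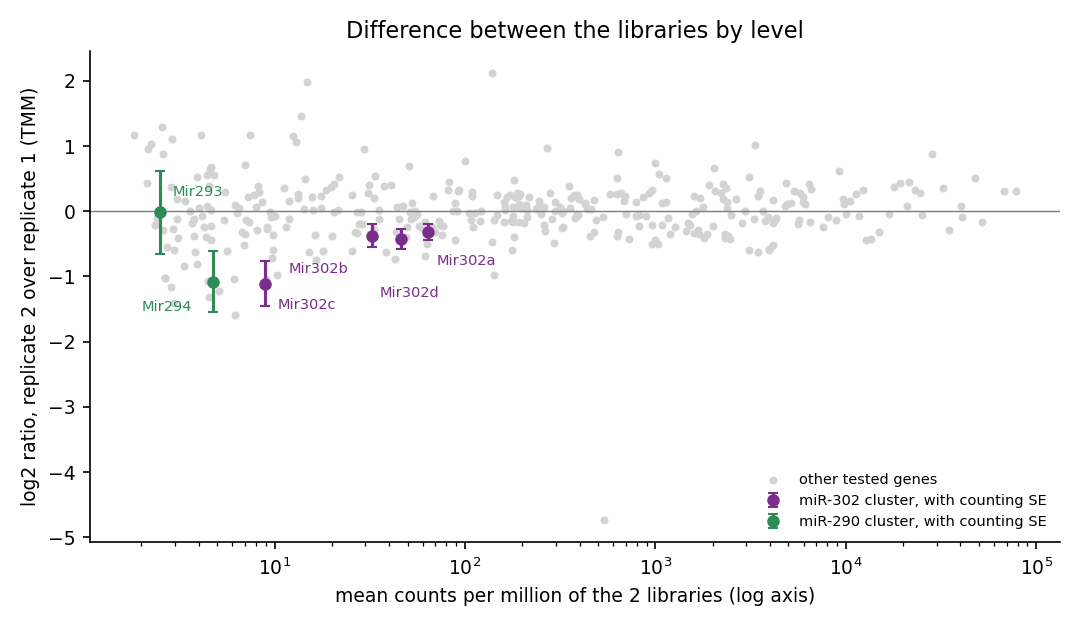
Log2 ratio of replicate 2 over replicate 1 after TMM scaling, against the mean level on a log axis, for the tested genes (grey) and the 6 tested members (coloured, with counting SE). Mir302a, Mir302b and Mir302d lie between -0.43 and -0.32, Mir302c and Mir294 near -1.11 and -1.08, and Mir293 at -0.017.

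The miR-17 seed relatives, growth-associated miRNAs whose seed is that of the stem cell clusters moved by 1 base, were far more abundant and lower in replicate 2 as well. They summed to 30188 CPM in replicate 1 and 19628 CPM in replicate 2, which is 169 and 158 times the miR-302 cluster and 3040 and 2880 times the miR-290 cluster. All 6 listed genes were called lower, with a median log2 ratio of -0.51, and all 6 also with total counts. Of all genes tested 24.7% were called lower, and 35.8% with total counts. The test accounts for counting error only, so at counts as high as those of Mir17 (41207 and 67839) small differences are called. Mir17, the first gene of the miR-17~92 cluster, led at 15154 and 10275 CPM with a log2 ratio of -0.44. Mir93, of a paralogous cluster in Mcm7, followed at 5066 and 3257 CPM with -0.51. The X-linked members Mir106a, at 89.0 and 63.5 CPM, and Mir20b, at 77.2 and 49.8 CPM, were at the level of Mir302a.

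The relatives of Mir367 by seed were all detected, in contrast to Mir367 itself. They summed to 2769 and 2601 CPM, led by Mir92-1 (1642 and 1468 CPM) and Mir25 (573 and 494 CPM). A 20-base stretch is shared with another miRNA gene by 2 of the 6. Their counts can therefore miss reads at several positions, which limits the sum and the order of these genes. Of the 6 genes 1 was called higher in replicate 2, 1 lower and 4 were not called, with a median log2 ratio of -0.089. The gene called higher was Mir92b (194 and 347 CPM) and the one called lower Mir363 (124 and 96.6 CPM). Of all genes tested 27.4% were called higher and 24.7% lower. With total counts 4 of the 6 were called lower and 1 higher, against 35.8% and 17.2% of all genes tested. The lowest of the 6, Mir92-2 at 57.7 and 49.8 CPM, was still far above the 1.10 and 0.454 CPM that 0 counts allow for Mir367.

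The miRNAs known to rise when cells leave the pluripotent state had the highest sum of the 3 reference groups. By the median gene the miR-17 seed relatives were higher, at a mean of 3946 CPM against 1633 CPM for this list. Of 15 listed genes 13 had a row, Mirlet7e and Mirlet7f-1 having none, and all 13 were detected. The 13 genes summed to 138325 and 142858 CPM, 772 times the miR-302 cluster in replicate 1 and 1152 times in replicate 2. A 20-base stretch is shared with another miRNA gene by 4 of the 13. Reads from such stretches can fall among the uncounted reads at several positions. Mirlet7i led at 73051 and 82998 CPM, followed by Mirlet7g at 43892 and 37906 CPM. Of the 12 tested genes 8 were called higher in replicate 2, 2 lower and 2 were not called, with a median log2 ratio of 0.21. With total counts 4 of them were called higher and 3 lower. Of all 372 genes tested 27.4% were called higher and 24.7% lower, or 17.2% and 35.8% with total counts. At such high counts small differences are called, as for Mirlet7g at a log2 ratio of -0.086. Mir296, reported to act on pluripotency factors, stood at 4107 and 3392 CPM, and Mir470, of an X-linked cluster, at 3 and 2 counts.

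**Figure D4:**
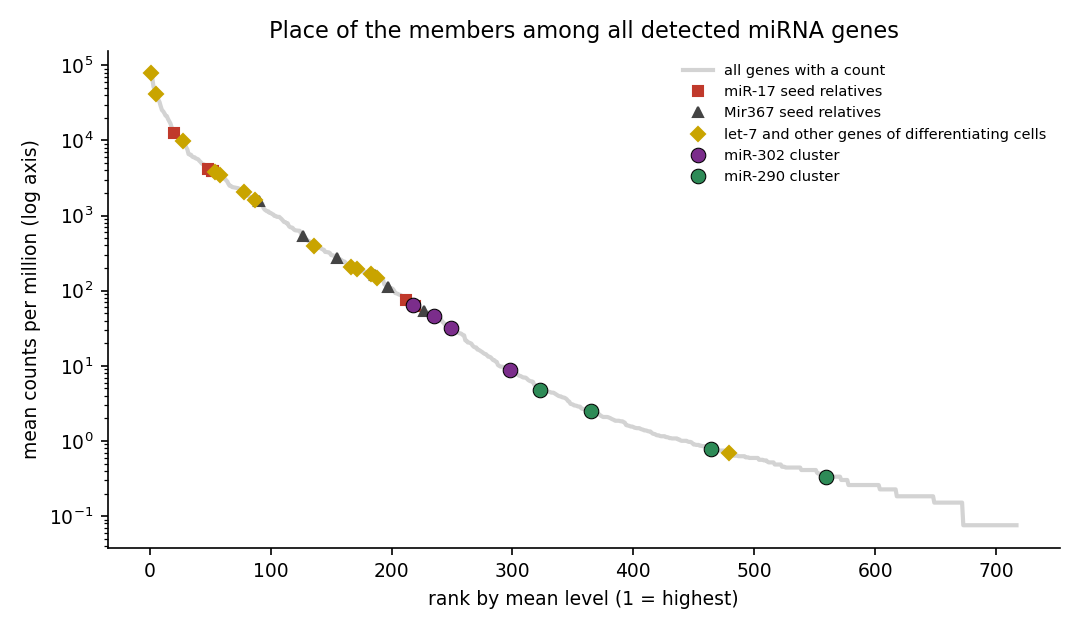
Mean level of all miRNA genes with a count, on a log axis, against their rank, with the members and the 3 groups of reference genes marked. The miR-302 genes with counts rank from 218 to 298, the miR-290 genes from 323 to 557, and Mir367 is absent because it had no count.

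Among all 1973 genes ranked by mean CPM, Mir302a was at place 218, Mir302d at 235, Mir302b at 249 and Mir302c at 298. Mir294 was at place 323, Mir293 at 364, Mir291a at 464 and Mir295 at 557, of 717 genes with any count. The genes nearest to Mir302a over the 2 libraries, by distance in log2(CPM + 1), were Mir29c (73.6 and 53.0 CPM), Mir301b (75.8 and 58.9 CPM) and Mir7689 (67.7 and 55.6 CPM). Nearest to Mir294 were Mir5626 (6.25 and 2.73 CPM), Mir1197 (7.36 and 2.88 CPM) and Mir2137 (6.62 and 2.42 CPM). With only 2 libraries this likeness is mainly one of level.

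Genes of an X-linked testis-expressed cluster were listed as germ line markers. Whether germ cells add to the counts of the members was not tested. Of 13 listed genes of this cluster 11 had a row, 6 of them at 0 in both libraries. Of all 1973 gene rows 1256 were at 0 in both, so a 0 is common. Mir470 is also on the list of miRNAs that rise when cells leave the pluripotent state. The sum was 3.68 CPM in replicate 1 and 5.60 CPM in replicate 2, against 9.93 and 6.82 CPM for the miR-290 cluster. Whether these genes mark germ cells of this stage was not tested. Mir741 was the highest, with 5 and 26 counts. No other gene of this list had enough counts to test. Mir741 was not called (log2 ratio 1.11, SE 0.68, exact binomial adjusted p = 0.135). The sum of the mesenchymal markers was higher in replicate 1, and most of it was Mir214 (16135 and 11066 CPM). Of the 4 genes 2 were called lower in replicate 2, and 3 with total counts, against 24.7% and 35.8% of all genes tested. Mir199a-1 went the other way (32.4 and 34.4 CPM, log2 ratio 0.21, SE 0.18) and was not called. A 20-base stretch is shared with another miRNA gene by 3 of the 4, so some of their reads can be uncounted. Epithelial markers were higher in replicate 2, with 5 of 7 called higher and 1 lower, or 4 and 2 with total counts. The share of all genes tested that was called higher was 27.4%, or 17.2% with total counts. Their part in the difference of the miR-302 genes was not tested.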

How the data were processed

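The authors deposited 1 file of raw counts for each library, made from alignments to mm10 with the GENCODE M4 annotation, per the file headers and accompanying metadata. No aligner is named in the sources used here. The files have 3 count columns and 4 summary rows, as STAR writes them, and that layout counts only uniquely placed reads. No header names the columns, so the second count column was taken as the gene strand from that layout. That column was used, and the summary rows were left out. Symbols and positions come from GENCODE M21 by identifier (1894 of 1973 matched, all 9 members with the same version).

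CPM, Wilson and Clopper-Pearson 95% intervals (counting error only), and the exact two-sided binomial test were computed with scipy 1.17.1. TMM factors came from edgeR 4.0.16 over genes with a mean of at least 10 counts, and DESeq2 1.42.0 gave size factors as an alternative. Log2 ratios used a prior of 0.5 counts and a threshold of 0.05 on adjusted p. The test step was checked on simulated data. Other alternatives were the unstranded column, total counts, other filters, totals and priors, and leaving out each replicate.

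Members and lists were chosen with earlier results of these data known. Named genes are the 9 members, other genes within 5000 bases of either cluster, the 2 highest genes of each reference list and the 3 genes nearest in level to Mir302a and Mir294. Mir106a, Mir20b, Mir92b, Mir363, Mir92-2, Mir296, Mir470, Mir741, Mir214 and Mir199a-1 were named after their values were seen. Results of the marker lists of skeletal muscle (11713 and 13348 CPM), endothelium (41674 and 54165 CPM) and leukocytes (543 and 710 CPM, Mir142 without a row) served only to check the tissue.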

Additional observations from a re-analysis of the deposited data

How the results depend on the processing

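Scaled to all reads of the library in place of miRNA counts, which makes the denominator larger by construction, the miR-302 cluster stood at 74.0 and the miR-290 cluster at 4.08, both as CPM of all reads. Without replicate 1 or 2 the miR-302 cluster ranged from 124 to 179 CPM, the miR-290 cluster from 6.82 to 9.93 CPM and their log2 ratio from 4.17 to 4.19. With Mir290a, Mir291b and Mir292 added, chosen after the data were seen, the log2 ratio was 3.95. The number of members called lower in replicate 2 was 3, and it was 5 with total counts, 2 with DESeq2 size factors, with no count minimum, with a minimum mean of 100 counts (where 3 members were tested) and with TMM factors over all gene rows (chosen after the data were seen), and 3 with the unstranded column and with a prior of 2 counts. Mir293 turned its sign with DESeq2 size factors (0.041) and with TMM over all gene rows (0.031), both within its counting SE of 0.64. The binomial test needs both libraries, so it has no value without either. With 27 and 45 counts, the miR-290 cluster is limited by depth.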
